A study of Mus musculus with 6 samples.

Results

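The genes of the integrin adhesion receptors and of their laminin ligands were followed in RM-1, a mouse prostate cancer cell line. The set was taken by gene symbol from the protein-coding rows of the deposited table and holds 37 genes out of 55487 rows, namely 18 integrin alpha subunits, 8 integrin beta subunits and 11 laminin chains. RNA was sequenced from RM-1 cells that had received a lentivirus for overexpression of Bhlhe22, a basic helix-loop-helix transcription factor, and from RM-1 cells that had received a blank lentiviral vector, with 3 libraries per group. These are called Bhlhe22 cells and vector cells, and all 6 libraries come from the same line grown in culture at 37°C. The labels do not say whether the libraries of a group were separate cultures or whether the transduced cells were clones, and the spread behind every p-value may therefore be only technical. The series title concerns myeloid-derived suppressor cells in bone metastatic prostate cancer, and the libraries compare the cancer cells alone.

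An integrin is a heterodimer of 1 alpha and 1 beta subunit that spans the plasma membrane, and the combination sets which matrix protein or cell surface ligand it holds. A laminin is a trimer of 1 alpha, 1 beta and 1 gamma chain that is secreted and forms the sheet of the basement membrane. In the prostate the epithelium sits on such a sheet, and the integrins with an alpha 3, alpha 6 or alpha 7 subunit are its main laminin receptors. Most integrins that bind collagen, laminin or fibronectin use the beta 1 subunit.

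Library totals ran from 15464709 to 25129552 counts, and a count of 0 allows up to 0.119 to 0.194 CPM (counts scaled to library size), where 3 counts in a library are taken as the limit of counting error. The gene Bhlhe22 gave 0 counts in each vector library and 8706, 14785 and 17995 counts in Bhlhe22 replicates 1, 2 and 3. Bhlhe22 replicate 1 stood apart from the other libraries. Its median absolute log2 difference from the other libraries of its group was 0.25, against 0.09 to 0.17 for the 5 others, and it ran with gene length. In tested genes of at most 2814.5 bases its median log2 difference was 0.22, and in those of at least 9256.5 bases, called long genes here, it was -0.22. Of the 20 integrin and laminin genes that passed the filter on low counts, 8 are long genes, and in 7 of these 8 Bhlhe22 replicate 1 was the lowest Bhlhe22 library, as it was in 6 of the other 12. Results that rest on this library are given with and without it. The epithelial keratin genes Krt8 and Krt18 had 757 ± 14.5 and 665 ± 24.0 CPM in vector cells and 545 ± 34.0 and 665 ± 80.1 CPM in Bhlhe22 cells (SD, n = 3). Other epithelial markers were low or absent. Epcam had 3.99 CPM in each group, Cdh1 had 0 to 6 counts per library, Krt14 had 0 to 4 and Krt5 had 0. The mesenchymal filament gene Vim had 1658 ± 55.4 and 1322 ± 89.8 CPM. Of the other mesenchymal markers, Cdh2 had 80.1 and 62.7 CPM, Zeb1 66.2 and 57.1 CPM and Col1a1 20.0 and 24.1 CPM, none of them called. Krt8 and Vim were called lower (edgeR adjusted p = 0.0047 and 0.023), and their part in the results on integrins and laminins was not tested. The defining prostate gene Hoxb13 had 0 counts in all 6 libraries.

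Bhlhe22 cells had moderately more RNA of several integrin and laminin subunits, and no subunit gene was called lower in the main fit. Of the 37 genes, 20 passed the filter on low counts. Of these 20, 7 rose and 0 fell (edgeR quasi-likelihood test, Benjamini-Hochberg threshold 0.05 over all tested genes), while of the 14663 genes tested 10.4% were called higher, 9.28% lower and 19.6% in either direction. None of the 20 was called with a change of at least 2-fold, against 3.59% of all tested genes. Among the genes that rose were Itgb7, Itgb5, Itga1, Itga2b, Lamb1 and Lamb3, by 1.24-fold to 1.6-fold. At an unadjusted p under 0.05, 7 were higher and 1 was lower, and DESeq2 and limma-voom also called 0 lower. A correction for transcript length and GC content, chosen after seeing the data, called Itga3 and Itgb2 lower. The median log2 fold change was 0.18 over the 20 genes and 0.01 over all genes tested. These are bulk libraries, in which fewer cells that express a gene and less RNA of it per cell cannot be told apart. Without Bhlhe22 replicate 1 there were 10 higher and 1 lower, and without any other 1 library there were 1 to 3 higher and 0 or 1 lower. Calls over all genes moved too, from 2881 with all libraries to 4682 without Bhlhe22 replicate 1 and down to 1348 without another library. Itgb7 is the gene whose call held in all 6 fits without 1 library.

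**Figure D1:**
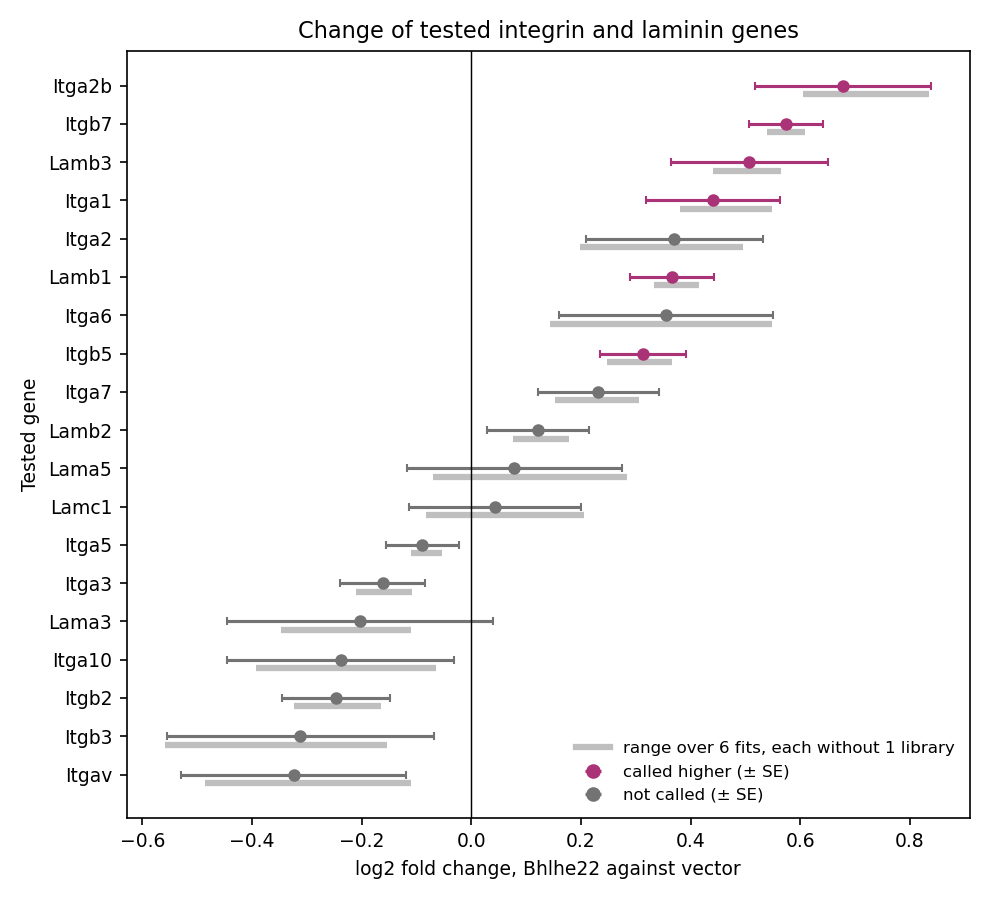
Log2 fold change of 19 tested integrin and laminin genes in Bhlhe22 against vector cells, as points with the SE of the edgeR fit, over grey bars for the range of the fits that each left out 1 library. The 6 genes called higher lie between 0.31 and 0.68, and the grey bars of Lama5 and Lamc1 cross 0.

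Bhlhe22 belongs to a factor class that binds the hexamer CANNTG, called an E-box, so the promoters of the 3 called genes with the highest levels per gene length are shown, from 250 bases before to 50 after the start site, 5′ to 3′ on the gene's strand. The sequences are RefSeq's (GRCm38.p6), with each CANNTG in capitals. They lie at chr15:102231886-102232185 on the minus strand for Itgb7, at chr12:31265043-31265342 on the plus strand for Lamb1 and at chr16:33829415-33829714 on the plus strand for Itgb5.
Itgb7: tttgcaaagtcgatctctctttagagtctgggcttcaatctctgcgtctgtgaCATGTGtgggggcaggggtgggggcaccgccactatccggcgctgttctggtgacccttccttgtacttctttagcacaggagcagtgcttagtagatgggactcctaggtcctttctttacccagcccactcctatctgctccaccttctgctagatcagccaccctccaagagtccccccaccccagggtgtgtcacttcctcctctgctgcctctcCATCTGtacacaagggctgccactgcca
Lamb1: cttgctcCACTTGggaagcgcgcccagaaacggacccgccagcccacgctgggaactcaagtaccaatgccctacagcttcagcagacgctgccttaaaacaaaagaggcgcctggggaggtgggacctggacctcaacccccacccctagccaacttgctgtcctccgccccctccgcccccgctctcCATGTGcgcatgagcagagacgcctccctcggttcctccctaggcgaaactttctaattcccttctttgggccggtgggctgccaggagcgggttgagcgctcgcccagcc
Itgb5: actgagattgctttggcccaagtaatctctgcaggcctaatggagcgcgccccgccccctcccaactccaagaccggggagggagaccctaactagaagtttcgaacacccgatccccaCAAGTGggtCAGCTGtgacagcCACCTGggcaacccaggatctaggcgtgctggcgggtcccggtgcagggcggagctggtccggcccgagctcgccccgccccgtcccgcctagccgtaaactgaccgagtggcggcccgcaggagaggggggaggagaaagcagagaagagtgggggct
The Itgb7 and Lamb1 windows each hold 2 copies of CANNTG and the Itgb5 window holds 3, of which 1 is CAGCTG. These motifs read the same on each strand, and CAGCTG and CATATG are forms of CANNTG. Of the 32851 mouse promoter windows of the same length, 72.3% hold CANNTG, 16.3% CAGCTG and 3.91% CATATG, a form bound by the Bhlhe22 and Olig branch of the class. A promoter was given for 23 of the 37 genes and for 6 of the 7 that rose. CATATG was in 0 of the 7 windows of those 6 genes and in 1 of the 26 windows of all 23, that of Itga8. A match is a string of letters and not a bound site.

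Among the beta subunit genes with counts, Itgb7 and Itgb5 had the highest levels per gene length, and Itgb1, listed at 0 for a reason that was not tested, is left out of this order and of the shares given here. Itgb7 (ENSMUSG00000001281, chromosome 15 from 102215995 to 102231944, minus strand, 15 exons in its longest transcript) encodes beta 7, known from lymphocytes as the partner of alpha 4 and alpha E. Its level was 159, 158 and 171 CPM in vector replicates 1, 2 and 3 and 252, 238 and 238 CPM in Bhlhe22 replicates 1, 2 and 3. All 3 Bhlhe22 libraries lay above all 3 vector libraries, and the groups were apart in this sense in 11 of the 20 genes and in 40.8% of all tested genes, in either direction. Bhlhe22 replicate 1 was the highest library. The log2 fold change was 0.57 (SE 0.07, edgeR adjusted p = 0.0017), and over the fits that each left out 1 library it ranged from 0.54 to 0.61 with an adjusted p of at most 0.017. Per gene length, Itgb7 went from 44.6 ± 1.94 to 65.4 ± 1.75 FPKM (SD, n = 3). It made up 52.0% ± 1.34 of the summed FPKM of the beta subunit genes in vector cells and 59.2% ± 0.718 in Bhlhe22 cells. Its known alpha partners were at or near 0, with 0 counts of Itga4 in every library and 2 to 5 counts of Itgae.

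Itgb5 (ENSMUSG00000022817, chromosome 16 from 33829665 to 33949338, plus strand, 15 exons) encodes beta 5, which pairs with alpha V to hold vitronectin. It had 148, 132 and 156 CPM in the vector libraries and 182, 182 and 179 CPM in the Bhlhe22 libraries. The Bhlhe22 libraries were all higher and lay closer together than the vector libraries. The log2 fold change was 0.31 (SE 0.08, edgeR adjusted p = 0.032). It was called without Bhlhe22 replicate 1 (0.30, adjusted p = 0.015), and without any 1 of the other 5 libraries the adjusted p was 0.053 to 0.108.

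Its partner gene Itgav, for alpha V, had 84.4, 86.7 and 83.8 CPM in the vector libraries and 45.1, 76.0 and 82.3 CPM in the Bhlhe22 libraries. The 3 Bhlhe22 values lay below the vector values, but replicate 1 was far below the other libraries of its group. The log2 fold change was -0.32 (SE 0.21, edgeR adjusted p = 0.320), and without Bhlhe22 replicate 1 it was -0.11. Itgb3, whose product pairs with alpha V or alpha IIb, had 57.1, 59.2 and 30.8 CPM in the vector libraries and 34.6, 39.4 and 44.4 CPM in the Bhlhe22 libraries. Vector replicate 3 was the lowest of all 6 libraries, so the groups overlapped. With all libraries the log2 fold change was -0.31 (edgeR adjusted p = 0.420), and without vector replicate 3 it was -0.56 and past the threshold (adjusted p = 0.048).

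Itgb2, the beta subunit of the leukocyte integrins, was present at 33.8, 34.5 and 33.6 CPM in the vector libraries and 31.5, 25.4 and 29.1 CPM in the Bhlhe22 libraries. All Bhlhe22 values were lower, with a log2 fold change of -0.25 (SE 0.10, edgeR adjusted p = 0.126). It was called lower without Bhlhe22 replicate 1 (-0.32, adjusted p = 0.024) and with the correction for transcript length and GC content. The leukocyte alpha subunits that beta 2 pairs with, Itgal, Itgam, Itgax and Itgad, had 0 counts in all 6 libraries. Of 6 leukocyte markers, Adgre1, Cd3e and Lyz2 had 0 counts everywhere, Ptprc had means of 0.032 and 0.066 CPM in vector and Bhlhe22 cells, and Cd68, a lysosomal protein gene, had 40.9 and 49.2 CPM. The summed level of the list was 37.8 to 42.6 CPM in the vector libraries and 43.6 to 52.0 CPM in the Bhlhe22 libraries.

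The remaining beta subunits gave few counts or none. Itgb4, the laminin-binding partner of alpha 6 in hemidesmosomes, had 4 to 9 counts per library, Itgb6 had 0 to 7 and Itgb8 had 0 to 2. Itgb1 was listed at 0 counts in all 6 libraries. It encodes beta 1, the subunit shared by the collagen-binding integrins, the integrins of alpha 3, alpha 5 and alpha 7 and a form of the alpha 6 integrin. The gene (ENSMUSG00000025809) spans chromosome 8 from 128685654 to 128733200, plus strand, and none of its exon length is shared with another gene in GENCODE M21. Of the 10 rows of the table beyond it on chromosome 8, 5 of them protein-coding, 1 had a count in any library. The nearest protein-coding gene before it, Nrp1, gave counts of 217, 245 and 212 for vector and 45, 155 and 183 for Bhlhe22 cells. Why Itgb1 is listed at 0 was not tested, and no level of beta 1 can be read from these data. Sums and shares over the beta subunits therefore leave it out.

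**Figure D2:**
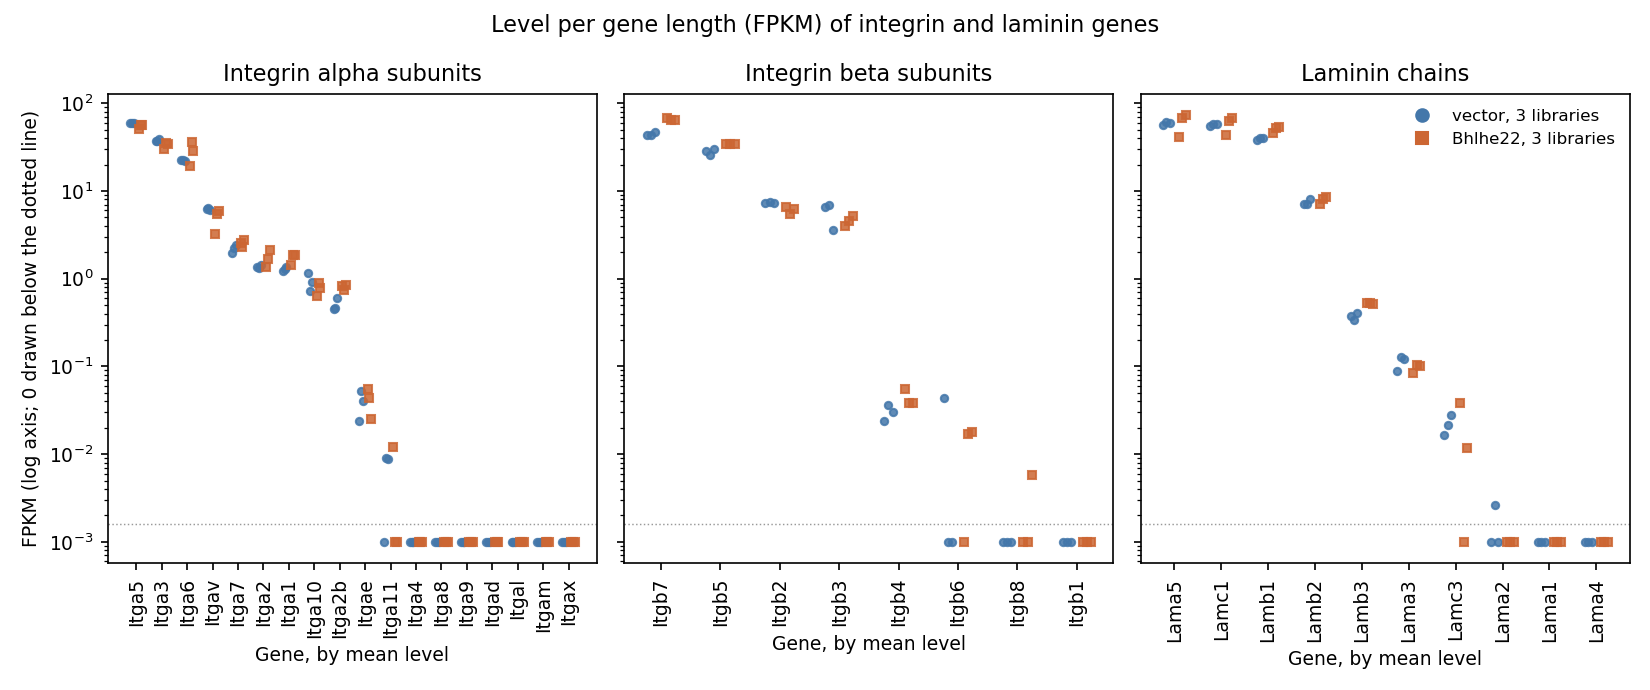
FPKM on a log axis of 36 integrin and laminin genes in the 3 vector libraries (blue circles) and 3 Bhlhe22 libraries (orange squares), with values of 0 drawn below the dotted line. Itga5, Itgb7, Lama5 and Lamc1 lead their families, and 10 genes, Itgb1 among them, are at 0 in every library.

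Among the alpha subunits, 3 genes held most of the RNA. Per gene length Itga5 was first, at 59.3 ± 0.294 FPKM in vector and 54.9 ± 3.17 FPKM in Bhlhe22 cells (SD, n = 3), followed by Itga3 at 37.8 ± 0.801 and 33.3 ± 2.79 FPKM and Itga6 at 22.2 ± 0.310 and 28.0 ± 8.16 FPKM. The vector ranges of these 3 genes did not meet, while in Bhlhe22 cells the spread of Itga6 reached that of Itga3. The length behind FPKM was 12769 bases for Itga6 and 6749 for Itga3, against 4310 and 4861 bases in their longest transcripts. In CPM the vector means were 282 for Itga6 and 253 for Itga3, so their order depends on the length used. Itgav came next at 6.20 ± 0.114 and 4.87 ± 1.46 FPKM. Itga7, Itga2, Itga1, Itga10 and Itga2b followed, from 2.19 down to 0.507 FPKM in vector cells.

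The collagen-binding alpha subunits were low but measurable. Itga1 (ENSMUSG00000042284, chromosome 13 from 114953096 to 115101964, minus strand, 29 exons) encodes alpha 1, a receptor for basement membrane collagen, and 3.68% of its exon length is shared with another gene on the same strand. It had 25.7, 26.9 and 28.3 CPM in the vector libraries and 30.4, 39.7 and 39.5 CPM in the Bhlhe22 libraries. The groups did not overlap, with Bhlhe22 replicate 1 nearest to the vector cells. The log2 fold change was 0.44 (SE 0.12, edgeR adjusted p = 0.044). Without Bhlhe22 replicate 1 it was 0.55 (adjusted p = 0.0013), and without any 1 of the other libraries the adjusted p was 0.104 to 0.156.

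Its neighbour on chromosome 13, Itga2, whose product binds fibrillar collagen, had 9.59, 9.27 and 10.1 CPM in the vector libraries and 9.99, 12.1 and 15.2 CPM in the Bhlhe22 libraries. Bhlhe22 replicate 1 lay within the vector range, and the log2 fold change of 0.37 was not called (SE 0.16, edgeR adjusted p = 0.157). Without that library it was 0.50 (adjusted p = 0.022). Itga10, a collagen receptor subunit of cartilage, ranged from 5.15 to 8.20 CPM in vector and from 4.66 to 6.51 CPM in Bhlhe22 cells, and 33.5% of its exon length is shared with another gene on the same strand. Itga11 had 0 or 1 count per library.

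None of the 3 laminin-binding alpha subunits was called with all libraries. Itga6, for alpha 6, had 284, 284 and 277 CPM in the vector libraries and 252, 460.3 and 369 CPM in the Bhlhe22 libraries. The vector libraries were within a few percent of each other, while 1 Bhlhe22 library lay below them and the others well above. With all libraries the log2 fold change was 0.36 (SE 0.20, edgeR adjusted p = 0.254). Without Bhlhe22 replicate 1 it was 0.55 and called (adjusted p = 0.0049), and without Bhlhe22 replicate 2 it was 0.14 (adjusted p = 0.600). Itga3, for alpha 3, had 250.2, 250.4 and 259 CPM in the vector libraries and 207, 242 and 230.3 CPM in the Bhlhe22 libraries. All Bhlhe22 values were lower, by less than the test could call, at a log2 fold change of -0.16 (SE 0.08, edgeR adjusted p = 0.193). Of the settings tried, only the correction for transcript length and GC content called Itga3 lower. Itga7, a laminin receptor subunit of muscle, ranged from 19.2 to 23.8 CPM in vector and 23.3 to 27.1 CPM in Bhlhe22 cells and was not called (0.23, adjusted p = 0.191).

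Among the alpha subunits that recognise the RGD peptide, Itga5 encodes alpha 5 of the fibronectin receptor. It had 339, 339 and 342 CPM in the vector libraries and 301, 329.9 and 329 CPM in the Bhlhe22 libraries. The Bhlhe22 libraries were all slightly lower, with a log2 fold change of -0.09 (SE 0.07, edgeR adjusted p = 0.397). Itga2b (ENSMUSG00000034664, chromosome 11 from 102453297 to 102470122, minus strand, 30 exons) encodes alpha IIb, known from platelets. It had 3.66, 3.69 and 4.91 CPM in the vector libraries and 6.77, 6.09 and 6.81 CPM in the Bhlhe22 libraries, on counts of 66 to 171. The groups did not overlap, and its log2 fold change of 0.68 was the highest of the 20 tested genes (SE 0.16, edgeR adjusted p = 0.026). It was called without vector replicate 3 (0.83, adjusted p = 0.026) and without Bhlhe22 replicate 1 (0.65, adjusted p = 0.026), and without any 1 of the others the adjusted p was 0.0577 to 0.0996. The platelet markers Pf4, Gp1ba and Ppbp summed to 1.45 to 2.04 CPM in the vector libraries and 0.986 to 1.71 CPM in the Bhlhe22 libraries. Pf4 was under the filter, and neither of the others was called. Itga4, Itga8 and Itga9 had 0 counts in all 6 libraries.

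**Figure D3:**
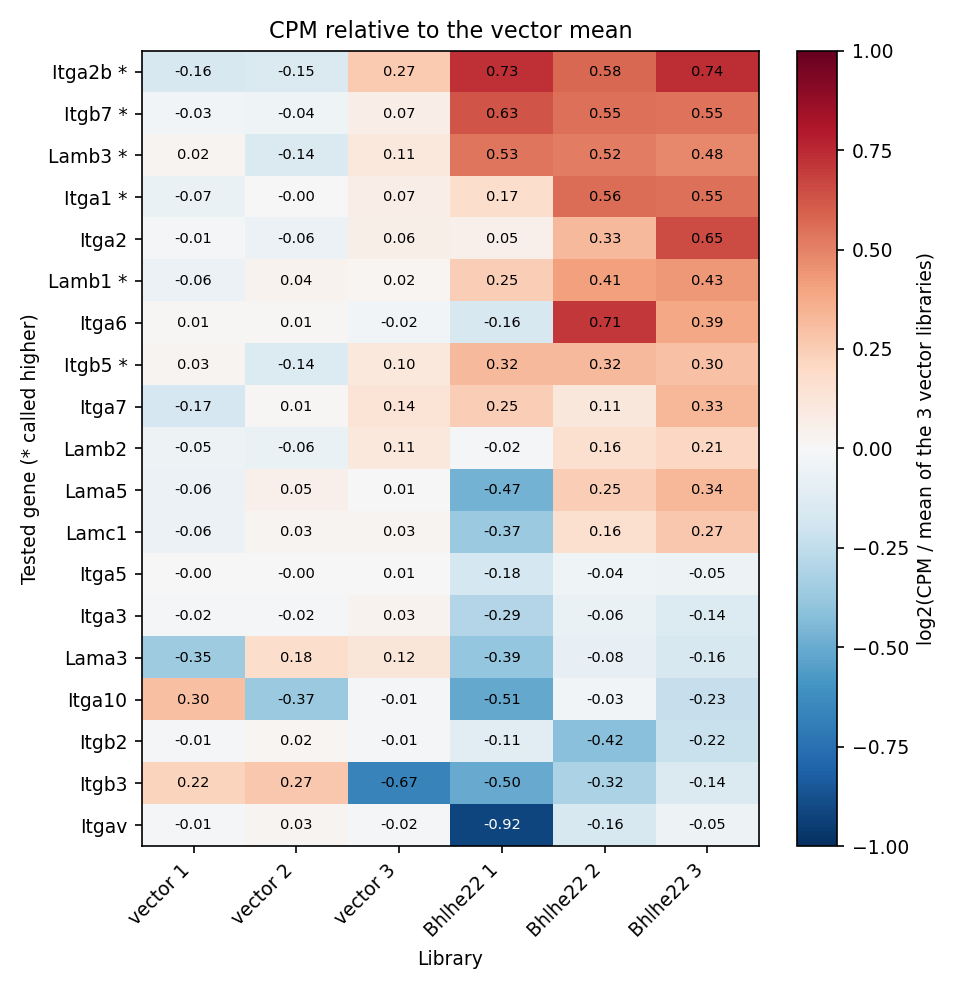
Log2 ratio of the CPM in each library to the mean of the 3 vector libraries for 19 tested integrin and laminin genes, ordered by fold change, with red above and blue below that mean. Bhlhe22 replicate 1 is at -0.92 for Itgav and -0.47 for Lama5, where Bhlhe22 replicates 2 and 3 are at -0.16 and -0.05 and at 0.25 and 0.34.

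On the ligand side, 1 alpha, 1 beta and 1 gamma laminin chain each held most of the RNA of its family. Lama5 made up 99.8% ± 0.0313 of the summed FPKM of the laminin alpha chains in vector cells, Lamb1 83.5% ± 0.897 of the beta chains and Lamc1 96.5% ± 0.227 of the gamma chains (SD, n = 3). In Bhlhe22 cells the shares were 99.8% ± 0.0352, 85.6% ± 0.131 and 95.4% ± 1.16. These 3 chains are known to assemble into a laminin of epithelial basement membranes.

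Of these 3, Lamb1 rose. Lamb1 (ENSMUSG00000002900, chromosome 12 from 31265234 to 31329644, plus strand, 33 exons) encodes the beta 1 chain. It had 471, 504 and 499 CPM in the vector libraries and 584, 655 and 663 CPM in the Bhlhe22 libraries. The groups were well apart, with Bhlhe22 replicate 1 again the lowest of its group. The log2 fold change was 0.37 (SE 0.08, edgeR adjusted p = 0.016). It was called without Bhlhe22 replicate 1 (0.41, adjusted p = 3.8e-04) and without Bhlhe22 replicate 3 (0.33, adjusted p = 0.048), and without any 1 of the other libraries the adjusted p was 0.062 to 0.089.

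Lama5, the alpha 5 chain (ENSMUSG00000015647), had 693, 748 and 725 CPM in the vector libraries and 519, 856 and 911 CPM in the Bhlhe22 libraries. Lamc1, the gamma 1 chain (ENSMUSG00000026478), had 555, 587 and 589 CPM and 446, 644 and 694 CPM in the same order. For each gene Bhlhe22 replicate 1 was the lowest of all 6 libraries and Bhlhe22 replicates 2 and 3 the highest. With all libraries neither was called, with log2 fold changes of 0.08 (SE 0.20, edgeR adjusted p = 0.825) and 0.04 (SE 0.16, edgeR adjusted p = 0.886). Without Bhlhe22 replicate 1 Lama5 was at 0.28 (adjusted p = 0.0039) and Lamc1 at 0.21 (adjusted p = 0.018), past the threshold, and without Bhlhe22 replicate 2 or 3 the sign of each turned. The direction of these chains thus depended on which Bhlhe22 library was used.

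Lamb3 (ENSMUSG00000026639, chromosome 1 from 193207699 to 193343878, plus strand, 27 exons) encodes a beta chain of epithelial laminins and rose at a low level. It had 3.05, 2.72 and 3.23 CPM in the vector libraries, on 55, 56 and 69 counts, and 4.34, 4.29 and 4.18 CPM in the Bhlhe22 libraries, on 66, 83 and 105 counts. The Bhlhe22 libraries lay close together and above all vector libraries. Its log2 fold change was 0.51 (SE 0.14, edgeR adjusted p = 0.047), and without any 1 library the adjusted p was 0.056 to 0.151. Lama3, an alpha chain of epithelial laminins, stayed near 1 CPM in each group, with 0.942 to 1.36 CPM in vector and 0.920 to 1.14 CPM in Bhlhe22 cells, and was not called (log2 fold change -0.20, adjusted p = 0.612). Lamb2, a beta chain of muscle and kidney basement membranes, ranged from 52.8 to 59.3 CPM in vector and 54.4 to 63.7 CPM in Bhlhe22 cells, and its log2 fold change of 0.12 was not called (adjusted p = 0.412). Lamc3 had 0 to 4 counts per library, Lama2 had 0 or 1, and Lama1 and Lama4 had 0 in each.

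In all, 17 of the 37 genes did not pass the filter, 10 with 0 counts in every library, Itgb1 among them, and 7 with between 0 and 9 counts in a library. For those 7 a difference was not detectable at this depth. Summed by class and per gene length, the beta subunits went from 85.9 ± 2.33 to 111 ± 1.85 FPKM and the laminin beta chains from 47.4 ± 1.69 to 58.7 ± 4.45 FPKM (SD, n = 3). Their library values did not overlap between the groups, as was so for 40.8% of all single genes tested. Most of these sums is RNA of the called genes Itgb7, Itgb5 and Lamb1. Itgb2 and Itgb3, neither of them called, had lower means in Bhlhe22 cells, from 7.34 to 6.10 and from 5.72 to 4.53 FPKM. The sums of the laminin-binding alpha subunits, at 62.2 ± 0.713 and 63.8 ± 10.8 FPKM, and of the laminin alpha and gamma chains did overlap. The RGD-binding alpha subunits summed to 66.0 ± 0.333 and 60.5 ± 4.6 FPKM. Their sums were lower in every Bhlhe22 library, at 55.2, 62.7 and 63.6 FPKM in replicates 1, 2 and 3 against 65.7 to 66.3 FPKM in vector cells, and replicate 1 was far below the others.

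Genes that act with integrins and laminins were counted over lists of textbook members. The lists were chosen with earlier results of these data known, so their counts are no independent test. Adaptor and signalling genes, which tie integrin tails to actin, were lower in 9 of 36 tested cases and higher in 1. Over all tested genes 9.28% were called lower and 10.4% higher. The median log2 fold change of the list was -0.14. The actin crosslinker gene Actn1 had 499.8, 508 and 515 CPM in the vector libraries and 341, 370.3 and 380.3 CPM in the Bhlhe22 libraries, well below them, and fell by 0.48 on the log2 scale (SE 0.07, edgeR adjusted p = 0.0038). Tns4, a tensin, fell by 1.15 on the log2 scale, Kank2, a talin-binding protein gene, by 0.64 and Parvb, a parvin, by 0.36. Nedd9, a docking protein gene of focal adhesion signalling, rose from 4.54, 4.76 and 4.68 CPM to 8.94, 9.09 and 7.69 CPM (log2 fold change 0.88). The calls of Actn1, Tns4, Kank2, Parvb and Nedd9 held without each library in turn. Leaving out vector replicate 3 gave 5 lower genes, the other vector replicates or Bhlhe22 replicate 2 gave 6, Bhlhe22 replicate 3 gave 8, and Bhlhe22 replicate 1 gave 11 lower and 4 higher. For this and the lists below, the fit without Bhlhe22 replicate 1 also had the most calls over all genes.

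Of 19 tested genes of integrin ligands other than laminins, 5 were called lower and 1 higher, against 9.28% and 10.4% of all tested genes. The median of the list was -0.09. The 5 include Col1a2, which passed the filter on low counts only through the vector libraries, where it was higher, so its call does not support the count. The RGD protein osteopontin gene Spp1 rose from 862, 879 and 796 CPM to 1325, 1180.4 and 1175 CPM, a log2 fold change of 0.54 (SE 0.08, edgeR adjusted p = 0.0044). The matrix protein gene Thbs1 fell from 65.9, 74.1 and 63.1 CPM to 32.7, 41.6 and 45 CPM, a log2 fold change of -0.76 (SE 0.13, edgeR adjusted p = 0.0082). Both held without each library in turn. Vcam1, the ligand of the alpha 4 integrins, had a log2 fold change of -0.43 and was called in 4 of the 6 fits without 1 library. Tgfb3, whose propeptide holds an RGD site, had -0.37 and was called in 2 of them. Col1a2, a collagen chain gene, had counts of 9, 12 and 11 in vector and 2, 2 and 3 in Bhlhe22 cells, and it did not pass the filter without vector replicate 2 or 3. Npnt (-0.38), the alpha 8 ligand nephronectin, completes the count and was chosen after its value was seen, with a call in 1 of the 6 fits. Leaving out vector replicate 2 gave 1 lower ligand gene, vector replicate 3 gave 2, vector replicate 1 or Bhlhe22 replicate 2 or 3 gave 3, and Bhlhe22 replicate 1 gave 6 lower and 5 higher.

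Of 10 tested integrin-associated membrane protein genes, 2 rose and 2 fell, with a median of -0.02. Here and for the lists below, the shares over all tested genes were 10.4% higher and 9.28% lower. The CD98 heavy chain gene Slc3a2 (log2 fold change 0.72), whose product binds integrin beta tails, and the caveolin gene Cav1 (-0.79) were called in all 6 fits without 1 library. The called tetraspanin genes went apart, with Cd9 at -0.46, called in 4 of the 6 fits, and Cd82 at 0.80, called in 1 of them. The other tested tetraspanin genes were not called, with Cd81 at -0.47, Tspan4 at -0.49 and Cd63 at 0.10. Without 1 library the counts were 1 or 2 higher and 1 to 3 lower. Of 10 tested integrin trafficking genes 3 rose and 1 fell, with a median of 0.12. Dab2, an endocytic adaptor gene, fell from 66.8, 69.0 and 67.8 CPM to 30.6, 42.7 and 42.0 CPM, a log2 fold change of -0.82 (SE 0.13, edgeR adjusted p = 0.0063) and held without each library in turn. Arf6 (0.38), Acap1 (0.38) and Rab11fip1 (0.40), recycling genes, were called in 3, 4 and 1 of the 6 fits, and leaving out vector replicate 1 or 2 gave 0 higher genes, Bhlhe22 replicate 2 gave 1, and vector replicate 3 or Bhlhe22 replicate 3 gave 2. Of 16 tested genes for basement membrane partners and other laminin receptors, and of 3 tested hemidesmosome partners, 0 were called in either direction by edgeR, with medians of 0.04 and -0.22. For the basement membrane list DESeq2 called 1 higher and 1 lower, and without Bhlhe22 replicate 1 edgeR called 3 higher and 2 lower.

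**Figure D4:**
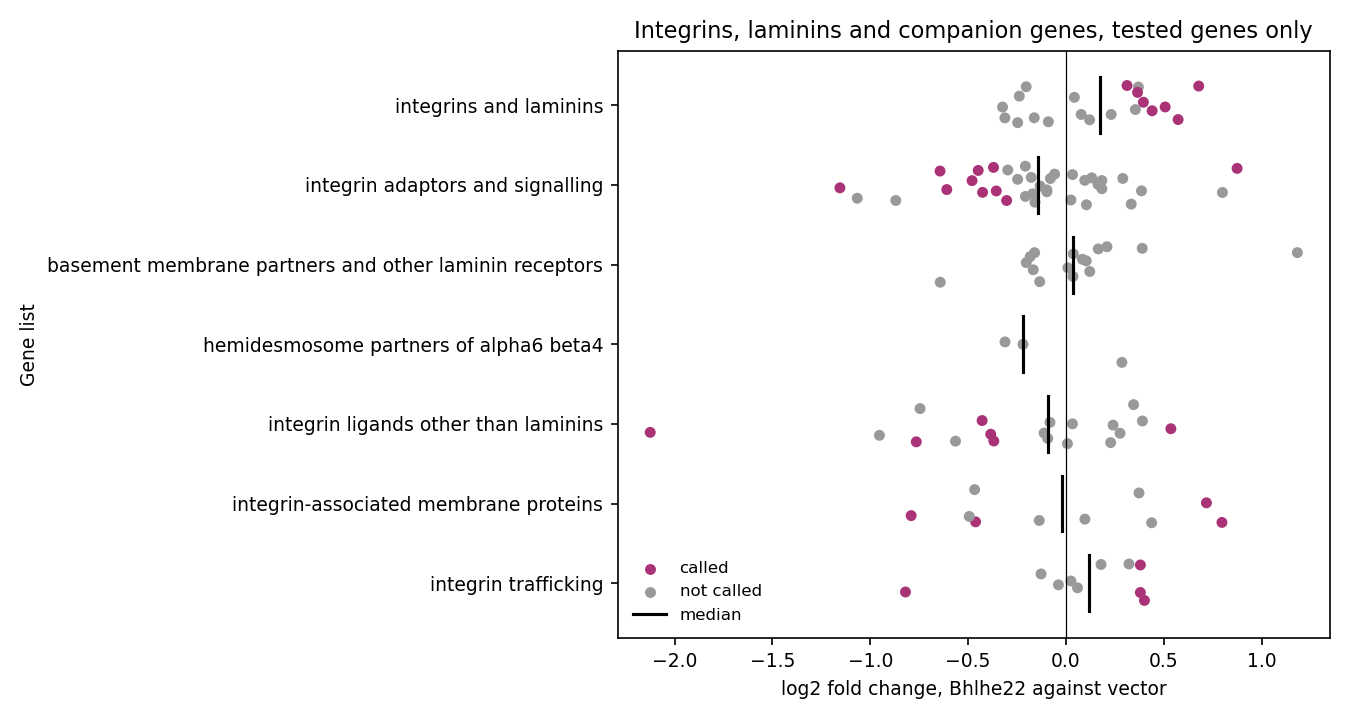
Log2 fold change in Bhlhe22 against vector cells of each tested gene of the integrin and laminin set and of 6 lists of genes that act with them, with called genes in purple, others in grey and the median as a black bar. The integrin and laminin genes run from -0.32 to 0.68, and the adaptor list from -1.15 to 0.88 with its median at -0.14.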

How the data were processed

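RNA-seq was analysed from 6 samples of RM-1 cells, 3 per group. The deposited values are raw counts for each gene from the authors. The submitters' processing notes name GRCm38 and, with no role or order, edgeR, StringTie 1.3.4b, HISAT2 2.1.0 and CASAVA 1.8. The sources used here do not give strandedness or annotation release. The FPKM values, also deposited, were made by the authors from the same counts with 1 length per gene. Checked on 10435 genes with 100 or more counts per library, that length was the same in all 6 within 0.000669%. All 37 genes have the same positions in GENCODE M21, from which strand, exons and exon overlaps came.

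Counts were tested with edgeR 4.0.16 in R 4.3.3 on all 6 samples, with filterByExpr (minimum count 10, minimum total 15), TMM scaling, robust quasi-likelihood fits, no covariate and Benjamini-Hochberg adjustment at 0.05. CPM is on TMM-scaled library sizes and was computed from the deposited counts. FPKM was used to compare levels between genes. Its length per gene can exceed that of the longest transcript, and orders, shares and class sums by FPKM depend on it. The fit was also run on simulated data, and no result given here rests on that run.

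All 37 members are counted and 36 are named, since 1 is not reported here, and from each companion list up to 4 called genes per direction by adjusted p. The members and lists were chosen with earlier results of these data known. Alternatives were scaling by library size, RLE or upper quartile, a filter of 1 CPM in 3 samples or none, DESeq2 1.42.0, limma-voom (limma 3.58.1), a fit with a replicate block, a fit that was not robust, limma on log2(FPKM + 1) and log2(FPKM + 0.1), glmTreat at 1.2-fold, protein-coding genes alone and leaving out each library. A correction for each library's trend on transcript length and GC content was added after seeing the data. Plots were made with Python 3.11.15, pandas 2.3.3 and matplotlib 3.10.9.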

Additional observations from a re-analysis of the deposited data

How the results depend on the processing

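The 7 higher integrin and laminin genes became 3 with the replicate block, 4 with limma on log2(FPKM + 0.1), 1 (Itgb7) with glmTreat at 1.2-fold and between 1 and 10 without 1 library. The 0 lower became 2 (Itga3 and Itgb2) with the correction for transcript length and GC content, chosen after seeing the data, and 0 or 1 without 1 library. Of all genes tested, 2881 were called, 1264 with glmTreat and between 1348 and 4682 without 1 library, the most without Bhlhe22 replicate 1. The other settings left 5 to 8 higher and 0 lower, apart from that correction. Lamb3 lost its call with DESeq2 (adjusted p = 0.092), no filter (0.086), upper quartile scaling (0.052), library size alone (0.053), the replicate block (0.118) and log2(FPKM + 0.1) (0.074), and Itgb5 with the replicate block (0.066). Itga1 lost its call with library size alone (adjusted p = 0.056), the replicate block (0.051), log2(FPKM + 1) (0.103) and log2(FPKM + 0.1) (0.105).

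Lamc1 changed sign with limma on log2(FPKM + 1) (-0.0037) and log2(FPKM + 0.1) (-0.0042) and without Bhlhe22 replicate 2 (-0.015) or 3 (-0.0823), with a range of -0.0823 to 0.206 over fits without 1 library. Lama5 changed sign without Bhlhe22 replicate 2 (-0.011) or 3 (-0.0695), with a range of -0.0695 to 0.284, and the cause was not tested. The scaling alternatives shifted the median of all genes by at most 0.022 on the log2 scale.

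The labels name no day, batch or shared culture behind the replicate numbers. Deviations of same-numbered libraries had correlations of 0.03, 0.02 and 0.02, and other pairs had -0.08 to 0.06. With 3 libraries per group these values cannot tell whether libraries were paired. With the replicate block Itga2b, Itgb7 and Lamb1 were called. The 7 genes under the filter that had any count are limited by depth.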
